A study of Mus musculus with 5 samples.

Results

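The 49 genes described here encode the synaptotagmins, the SNARE proteins, the complexins and the syntaxin binding proteins, and their transcripts were counted in single cells of the mouse lumbar dorsal root ganglion (DRG), which holds the cell bodies of the somatosensory neurons. They were chosen by a rule on the symbol alone that used no measured value, though earlier results of these data were known. Of the 17271 rows of the count table, 49 carried the symbol of a numbered synaptotagmin (Syt, 16 genes), syntaxin (Stx, 14), syntaxin binding protein (Stxbp, 6), vesicle-associated membrane protein (Vamp, 6), complexin (Cplx, 2) or of Snap23, Snap25, Snap29, Snap47 and Snap91 (5). Snap91 shares the name only. It encodes a clathrin adaptor of vesicle endocytosis and is not a SNARE. All 49 had at least 1 transcript, and 49 of 49 lay on the same chromosome and strand in the GENCODE annotation of mm10 as in the row names. Of the genes the results turn on most, Snap25 lies at chr2:136713453-136782428 (plus strand), Vamp1 at chr6:125215551-125245964 (plus strand), Vamp2 at chr11:69088490-69092384 (plus strand), Cplx1 at chr5:108518554-108550024 (minus strand), Cplx2 at chr13:54371349-54383917 (plus strand), Stx1a at chr5:135023482-135051100 (plus strand) and Syt9 at chr7:107370728-107548656 (plus strand), all protein coding.

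The cells came from 5 adult C57BL/6 mice aged 18 weeks, 3 males and 2 females, labelled wild type and untreated. There was therefore 1 condition, and every comparison lay between cell types of the same mice. Ganglia were dissociated with collagenase and trypsin, single cells were captured in droplets with a Chromium 3′ kit, and a unique molecular identifier (UMI) marked each captured transcript. The deposited annotation placed the 3352 cells in 14 types, which are 3 neurofilament types (NF_Pvalb, NF_Calb1 and NF2_Ntrk2.Necab2), 3 non-peptidergic types (NP_Mrgpra3, NP_Mrgprd and NP_Nts), 5 peptidergic types (PEP3_Trpm8, PEP2_Htr3a.Sema5a and the PEP1 types PEP1_Dcn, PEP1_Slc7a3.Sstr2 and PEP1_S100a11.Tagln2), the tyrosine hydroxylase type Th, satellite glia and endothelial cells.

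For each mouse and type the UMIs of its cells were added up, and a level, in CPM, is the UMIs of a gene per 1000000 UMIs of that sum. Values of the 5 mice are given in the order mouse 1 to mouse 5, a numbering of the 5 libraries in the cell names that no sample label or sex could be tied to. Because 1 UMI stands for 1 transcript end whatever its length, CPM needs no correction for length. The authors hold that the bias of a platform may differ from gene to gene. Levels of different genes are therefore set side by side only as counted, and such bias was not tested. The types held 56 (endothelial) to 900 (NP_Mrgprd) cells. The libraries held 13050375 to 88886919 UMIs, and the sums of a type over the mice 941065 (endothelial) to 92245664 (NP_Mrgprd). Of the 70 sums, 9 held fewer than 10 cells and the smallest held 3, and 7 of the 3345 distinct barcodes occurred in more than 1 library. The 16 genes in the names of the types were each highest in their own type. The satellite glia markers (6 of 6 in the table, among them Fabp7 and Apoe) summed to 80123 to 103908 CPM in satellite glia and to 228 to 373 CPM in neurons over the mice. The authors drew the types from these same counts, so a test between types says how far they differ and is no independent evidence that the types exist. The assay counted transcripts in cell bodies, not proteins in terminals.

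A secretory vesicle fuses when a Vamp on the vesicle zips together with a syntaxin and a Snap25 family protein on the target membrane, the 3 kinds of SNARE that form the fusion complex. Munc18 proteins, of which Stxbp2 and Stxbp3 encode members, hold syntaxins and guide this assembly, complexins clamp and then assist the assembled complex, and synaptotagmins with calcium-binding C2 domains couple it to calcium entry. Sensory neurons release glutamate from small vesicles and neuropeptides from dense-core vesicles, and other family members serve fusion steps in the Golgi, endosomes and lysosomes of every cell.

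Taken as a group, the members made up more of the transcripts in neurons than in the other cells. Their summed level was 5787 ± 276 CPM in the pooled neurons (SD, n = 5 mice), 1339 ± 130.1 CPM in satellite glia and 959.6 ± 81.3 CPM in endothelial cells, and the 5 mice of neurons did not overlap those of the other cells. Among the neuron types it was highest in NF_Pvalb at 8838 ± 846 CPM, followed by NF_Calb1 at 7691 ± 690.5 and PEP2_Htr3a.Sema5a at 6651 ± 650.4, and lowest in NP_Nts at 4551 ± 277 CPM. The largest contribution came from Syt11, at 1024 ± 117 CPM in the pooled neurons, ahead of Syt4 at 759.9 ± 56.9, Vamp2 at 609 ± 68.3 and Snap25 at 507 ± 65.8 CPM. Syt11 and Syt4 share a first C2 domain that does not bind calcium. In the pooled neurons both stood above the 265 ± 16.2 CPM of Syt1, the fast calcium sensor of synaptic vesicles. Types with many UMIs weigh most in this pool, and NP_Mrgprd gave 92245664. The order differed by type. In Th, Syt1 had 574 ± 35.9 CPM and Syt4 240 ± 34.3. In NF_Pvalb, Snap25 had 2378 ± 218 CPM, above the highest type mean of Syt11 (1774 ± 173 in NF_Calb1).

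**Figure D1:**
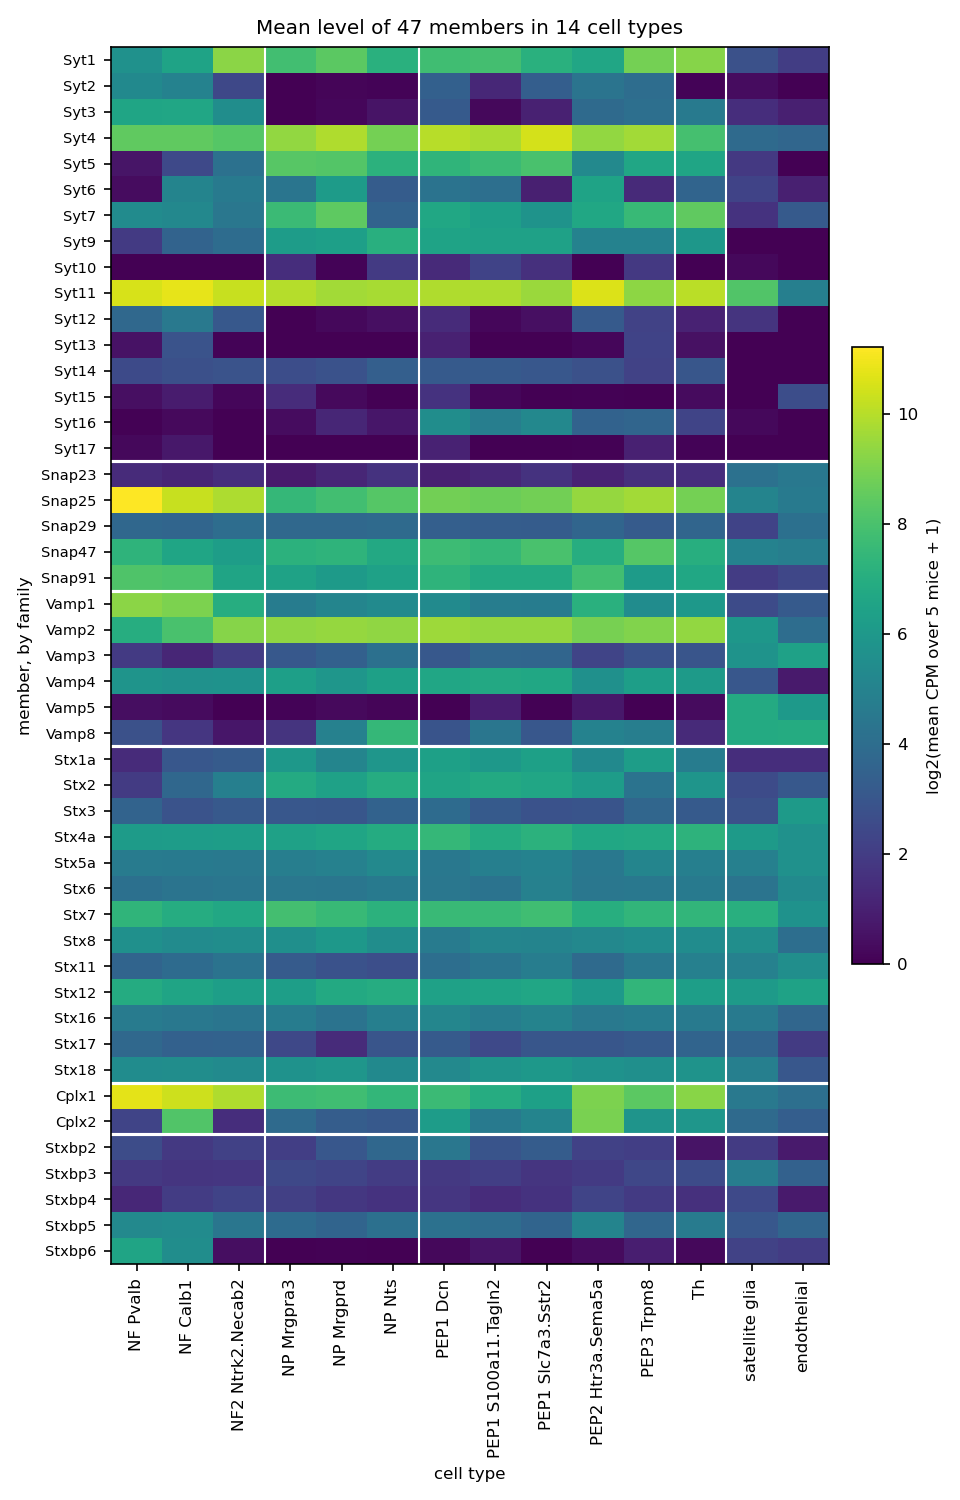
Mean level of 47 members (rows, grouped by family) in each of the 14 cell types (columns), coloured by log2 of the mean CPM over 5 mice plus 1. Syt11, Syt4, Snap25, Vamp2 and Cplx1 are bright across the neuron columns, while Vamp5, Vamp3, Vamp8 and Snap23 are brighter in the glia and endothelial columns than in most neuron columns.

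The first comparison asked which members separated neurons from the other cells of the ganglion. The sums were tested with edgeR's quasi-likelihood test with the mouse as a block, and a gene was called at a Benjamini-Hochberg adjusted p under 0.01 with at least a 2-fold difference. Of the 36 members that passed the filter on low counts, 27 were called against satellite glia, 21 higher and 6 lower in neurons, where 55.8% of the 9484 genes tested were called (30.5% higher and 25.3% lower). Against endothelial cells 29 were called, 22 higher and 7 lower, where 58.7% of the genes were called (34.2% higher and 24.4% lower). The median log2 fold change of the tested members was 1.82 against glia and 2.50 against endothelial cells, beside 0.18 and 0.45 over all genes tested. Both comparisons share the neuron sums.

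Among the members higher in neurons, the synaptotagmins stood farthest from the glia. Syt9, a calcium sensor of fast release, had 58.3, 82.4, 57.7, 69.1 and 66.3 CPM in the pooled neurons of the 5 mice and no UMI in the 4571598 UMIs of satellite glia or the 941065 of endothelial cells. With a floor of 3 UMIs over the group it was at least 104-fold higher in neurons than in glia and at least 21.5-fold higher than in endothelial cells. Syt5, a relative of Syt1 found on dense-core vesicles, had no UMI in endothelial cells either, which puts it at least 59.1-fold higher in neurons. For Syt9 the call of both comparisons was lost with DESeq2, where the adjusted p was 0.013 and 0.073. Against glia, Syt7 (log2 fold change 5.80 ± 0.27, ± SE, adjusted p = 3.7e-20), Syt5 (5.46 ± 0.28, adjusted p = 1.1e-17), Syt4 (5.45 ± 0.20, adjusted p = 2.7e-23) and Syt1 (5.13 ± 0.23, adjusted p = 1.7e-20) followed. The value of Syt7 was 6.58 without mouse 3 and that of Syt5 6.08 without mouse 2. In glia Syt7 had 2.12 ± 2.30 CPM and Syt5 2.65 ± 3.16 CPM (SD over the 5 mice), so the size of both values rests on few UMIs. Against endothelial cells, Syt1 (5.71 ± 0.39) and Syt4 (5.52 ± 0.27) were higher in neurons (adjusted p = 3.6e-15 and 3e-19). Syt1 had 3.13 ± 3.21 CPM in endothelial cells (SD over the 5 mice), so the size of its value rests on very few UMIs. Vamp4, a SNARE of the trans-Golgi network, was called higher as well (5.66 ± 0.63, adjusted p = 8.7e-10), but on 1 UMI in the endothelial sums, from mouse 3, and the fitted value was 5.07 without mouse 2 and 13.10 without mouse 3, so it is no estimate of size.

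The core fusion genes were also higher in neurons, by less. Snap25 had 619, 469, 497, 451 and 501 CPM in neurons, 7.56, 28.5, 41.6, 28.5 and 57.8 CPM in satellite glia and 0, 23.2, 40.6, 24.8 and 27.7 CPM in endothelial cells. Each mouse was higher in neurons than any mouse in the other cells. Its log2 fold change was 3.69 ± 0.20 against glia (adjusted p = 2.9e-18) and 3.91 ± 0.28 against endothelial cells (adjusted p = 1.6e-14). Vamp2 (3.11 ± 0.17 against glia), Vamp1 (3.89 ± 0.25), Stx1a (4.14 ± 0.33), Cplx1 (3.97 ± 0.20) and Cplx2 (2.33 ± 0.20) were called higher in neurons as well, in 5 of 5 mice (Stx1a 4.74 without mouse 3). The levels in glia have to be read beside those of neuron markers there. Tubb3, Rbfox3, Uchl1, Elavl4, Prph and Nefl stood at 1.98% to 8.22% of their neuron level in satellite glia and at 1.66% to 7.94% in endothelial cells. Snap25 stood at 6.46% and 4.59%, inside both ranges, as did Cplx1, Stx1a and Vamp1. Vamp2 stood at 9.75% in glia and 2.44% in endothelial cells, and Cplx2 was above both ranges, at 16.7% and 11.2%. The part of RNA from neurons in these values was not tested.

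Syt11 stood farther above that range in glia. It had 1031, 1182, 1088, 928 and 893 CPM in neurons, 282, 328, 272, 317 and 254 CPM in satellite glia, 28.4% of the neuron level, and 17.2, 56.2, 11.1, 34.8 and 18.5 CPM in endothelial cells, 2.69% of the neuron level. The neurons were still higher than glia, with a log2 fold change of 1.57 ± 0.15 (adjusted p = 2.4e-11) and no overlap between mice.

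**Figure D2:**
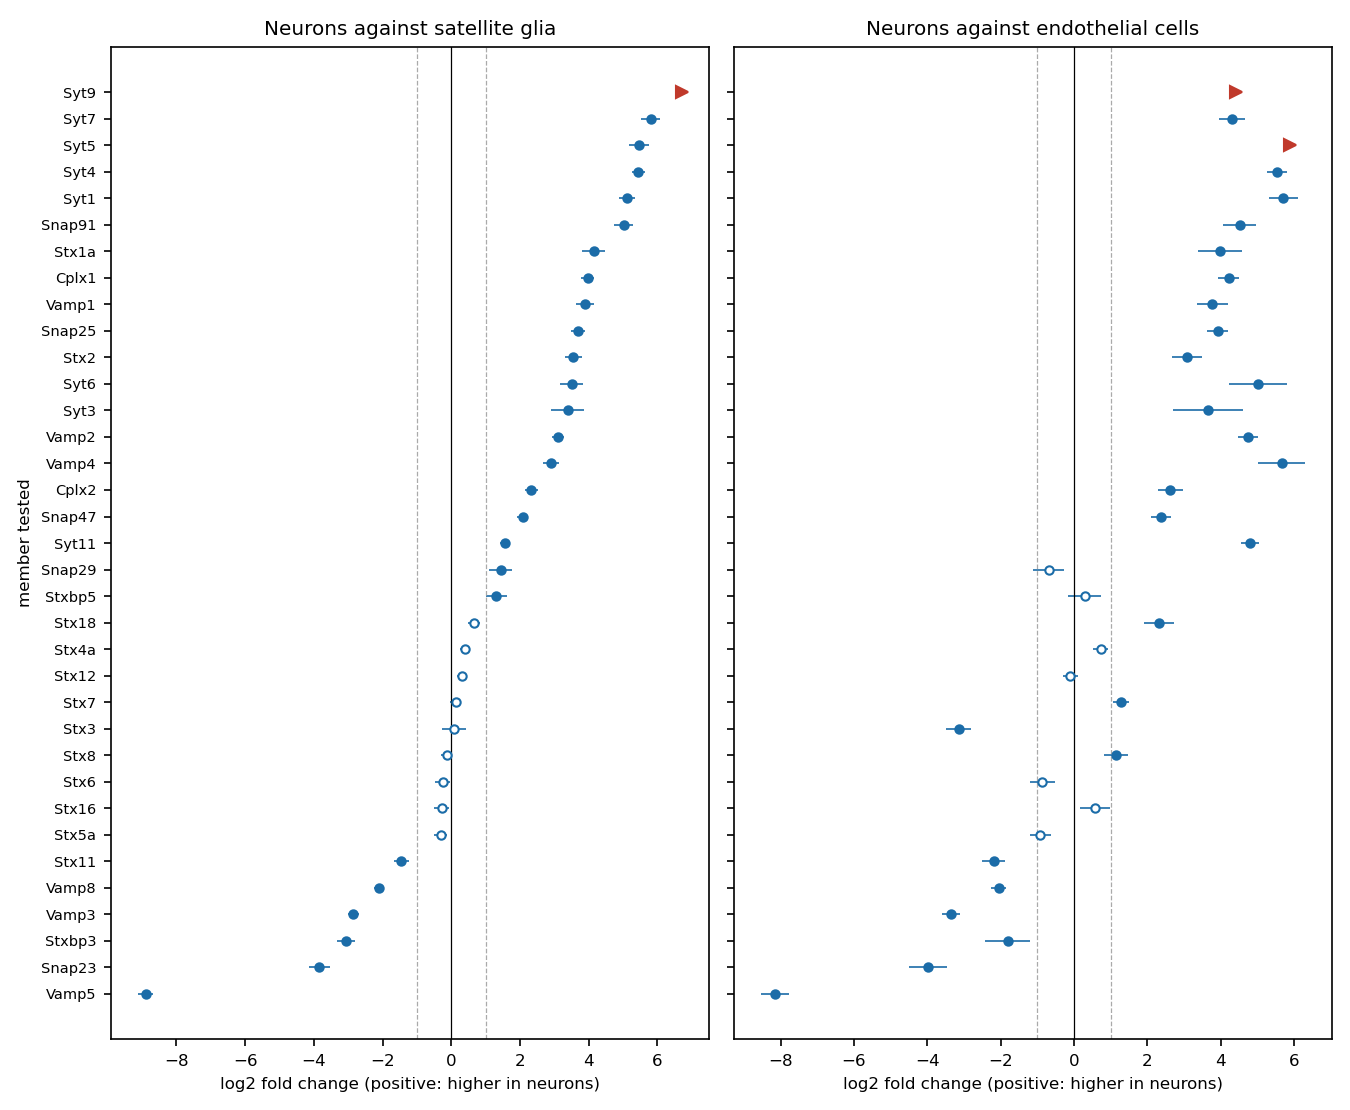
Log2 fold change (x axis, bars ± SE) of 35 members tested, in neurons against satellite glia (left) and against endothelial cells (right), from sums of 5 mice, with called members filled, others open, lower bounds of members with 0 UMIs in the other cells as red triangles and a 2-fold difference as dashed lines. Vamp5 lies at the far left and Syt9 near the far right of both panels.

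The members lower in neurons were SNAREs and partners that serve fusion outside the synapse. Vamp5, a Vamp of muscle and endothelial plasma membrane, had 119, 93.5, 95, 146 and 121 CPM in satellite glia and 85.8, 69.5, 55.4, 89.4 and 27.7 CPM in endothelial cells, against 0.159, 0.339, 0.371, 0.221 and 0.237 CPM in neurons. No neuron value reached 1 CPM, and the log2 fold change was -8.89 ± 0.22 against glia (adjusted p = 8.6e-28) and -8.15 ± 0.38 against endothelial cells (adjusted p = 4.6e-20). Snap23, the widely expressed relative of Snap25, had 17.5 ± 6.04 CPM in glia, 21.6 ± 11.2 in endothelial cells and 1.47 ± 0.138 in neurons (SD, n = 5), with log2 fold changes of -3.84 ± 0.31 and -3.99 ± 0.52 (adjusted p = 1.7e-13 and 2.3e-08). These groups did not overlap either. Vamp3, also called cellubrevin, a Vamp of recycling endosomes, had 52.4 ± 12.9 CPM in glia, 83.4 ± 42.3 in endothelial cells and 8.59 ± 1.03 in neurons, with log2 fold changes of -2.85 ± 0.17 and -3.35 ± 0.26 (adjusted p = 6.8e-17 and 7.1e-14). Vamp8, an endosomal and lysosomal Vamp, had 113 ± 19.3 CPM in glia, 119 ± 36.9 in endothelial cells and 32.8 ± 9.98 in the pooled neurons, with log2 fold changes of -2.10 ± 0.15 and -2.06 ± 0.21 (adjusted p = 3.6e-15 and 1e-10). Markers of other cells were also present in these sums. The 5 macrophage markers summed to 16.6 to 55.5 CPM in satellite glia and 0 to 129 CPM in endothelial cells, and the 6 satellite glia markers to 1527 to 15236 CPM in endothelial cells. Their part in the values was not tested.

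Stx3, a syntaxin of apical plasma membranes, had 85.8, 52.9, 22.2, 94.3 and 83.2 CPM in endothelial cells against 6.27, 7.9, 9.39, 8.81 and 7.52 CPM in neurons, without overlap and with a log2 fold change of -3.15 ± 0.33 (adjusted p = 2.5e-10). Against glia its log2 fold change was 0.09 ± 0.35 (adjusted p = 0.83). Stx11, a syntaxin known from cytotoxic lymphocytes, had 46.3 ± 4.63 CPM in endothelial cells, 29.5 ± 11.8 in glia and 12 ± 2 in neurons, with log2 fold changes of -2.20 ± 0.31 and -1.45 ± 0.22 (adjusted p = 1.5e-07 and 2.3e-07). Stxbp3 (Munc18c), the Munc18 of non-neuronal exocytosis, had 37.8, 27.6, 15.9, 20.6 and 26 CPM in satellite glia, and the log2 fold change of neurons was -3.07 ± 0.27 (adjusted p = 1.5e-12). Its call against endothelial cells (-1.81 ± 0.62, adjusted p = 0.0096) rested on 9 UMIs and was lost without mouse 2, 3 or 5, at adjusted p of 0.019, 0.036 and 0.086. Stx7 and Stx8, syntaxins of late endosomes, and Stx18, of the endoplasmic reticulum, were called higher in neurons than in endothelial cells (1.28 ± 0.23, 1.14 ± 0.33 and 2.32 ± 0.41, adjusted p = 6.2e-06, 0.0027 and 6.9e-06), on 55, 17 and 8 endothelial UMIs, and were not called against glia. The call of Stx8 was lost without mouse 3 (adjusted p = 0.02) and with sums of at least 10 cells (adjusted p = 0.016). Stx5a, Stx6, Stx12 and Stx16, of the Golgi and endosomes, were not called in either comparison.

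Among neurons, the second question was whether the release machinery differed between the classes that the names of the types give. Here 43 members passed the filter. Of these, 24 were called between the NF and the NP types (12 higher and 12 lower in NF, background 33.9% of 11561 genes, 19.2% higher and 14.7% lower), 18 between NF and PEP (6 higher, 12 lower, background 24.9%, 11.5% and 13.3%) and 9 between NP and PEP (2 higher and 7 lower in NP, background 19.7%, 5.57% and 14.1%). The share of members called was above the background where NF types were one side and near it between NP and PEP. The median absolute log2 fold change was 1.16, 0.84 and 0.38 for members and 0.71, 0.53 and 0.38 for all genes tested. The 3 comparisons share their sums pairwise. Each contrast compares averages of log levels over the types of a class, so a class with 1 very high and 1 very low type can differ from what its mean CPM shows.

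The target SNARE Snap25 followed the NF class. It had 2424, 2582, 2029, 2330.0 and 2526 CPM in NF_Pvalb, 1426, 1189, 848, 1361 and 1286 CPM in NF_Calb1 and 975, 851, 788, 957 and 997 CPM in NF2_Ntrk2.Necab2, against 186, 133, 174, 184 and 208 CPM in NP_Mrgpra3, the lowest neuron type. NF_Pvalb lay above every other type without overlap, while NF_Calb1 overlapped NF2_Ntrk2.Necab2 and PEP3_Trpm8, and NP_Mrgpra3 overlapped NP_Mrgprd. The log2 fold change of NF was 2.48 ± 0.06 against NP (adjusted p = 4e-44) and 1.33 ± 0.05 against PEP (adjusted p = 5.8e-34), and that of NP against PEP was -1.15 ± 0.05 (adjusted p = 4.9e-29). Stx1a, the syntaxin that partners Snap25 at the plasma membrane, ran the other way. It had 0, 2.96, 0.84, 3.11 and 1.22 CPM in NF_Pvalb and 99.4, 69, 94.7, 75.2 and 68.6 CPM in PEP1_Slc7a3.Sstr2, with no overlap. NF stood at a log2 fold change of -3.43 ± 0.15 against NP and -3.72 ± 0.14 against PEP (adjusted p = 1.3e-29 and 3.6e-32).

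The vesicle SNAREs Vamp1 and Vamp2, which do the same job in different neurons, showed opposite patterns. Vamp1 had 573, 813, 546, 513 and 597 CPM in NF_Pvalb, 571, 687, 362, 469.6 and 506 CPM in NF_Calb1, 158, 171, 97.5, 101 and 110.0 CPM in NF2_Ntrk2.Necab2 and 25.5, 30.3, 22.6, 25.5 and 21.1 CPM in NP_Mrgpra3. NF_Pvalb and NF_Calb1 overlapped each other and no other type. NF2_Ntrk2.Necab2 overlapped PEP2_Htr3a.Sema5a, at 126, 191, 98.6, 124 and 146 CPM. Vamp2 had 84.4, 191, 74.7, 164 and 114 CPM in NF_Pvalb and 237, 273, 241, 261 and 254 CPM in NF_Calb1, but 541, 538, 645, 589 and 599 CPM in NF2_Ntrk2.Necab2 and 801, 791, 678, 738 and 798 CPM in PEP1_Dcn. Both lower NF types stayed under every value of the other neuron types, while NF2_Ntrk2.Necab2 lay among them. For Vamp1 the log2 fold change of NF was 3.29 ± 0.07 against NP and 2.92 ± 0.06 against PEP (adjusted p = 3e-45 and 5.5e-45), and for Vamp2 it was -1.44 ± 0.07 and -1.26 ± 0.06 (adjusted p = 2.4e-28 and 7e-27).

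Complexin 1, the complexin of fast central synapses, moved with Vamp1. Cplx1 had 1553, 2220.0, 1672, 1584 and 1679 CPM in NF_Pvalb, 1478, 1609, 1007, 1324 and 1252 CPM in NF_Calb1, 932, 1080.2, 887, 919.7 and 939 CPM in NF2_Ntrk2.Necab2 and 73.4, 98.9, 64.1, 78.6 and 92.4 CPM in PEP1_Slc7a3.Sstr2. Each mouse of the 3 NF types was above every mouse of the NP and PEP types. The log2 fold change of NF was 2.62 ± 0.06 against NP and 2.66 ± 0.05 against PEP (adjusted p = 3.1e-43 and 2.9e-46), and between NP and PEP it was 0.04 ± 0.06 (adjusted p = 0.49). Complexin 2 split the classes. Cplx2 had 371, 459.8, 560.3, 505 and 584 CPM in PEP2_Htr3a.Sema5a and 269, 349, 293, 256 and 256 CPM in NF_Calb1, against 1.92, 5.93, 2.52, 4.98 and 4.26 CPM in NF_Pvalb and 0, 5.41, 0, 1.32 and 2.09 CPM in NF2_Ntrk2.Necab2. The 2 high types did not overlap each other or any other type, so the NF class held both a high type and the 2 types with the lowest mean levels. Its log2 fold change was 0.40 ± 0.25 for NF against NP (adjusted p = 0.14) and -2.74 ± 0.11 for NP against PEP (adjusted p = 9.7e-31).

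**Figure D3:**
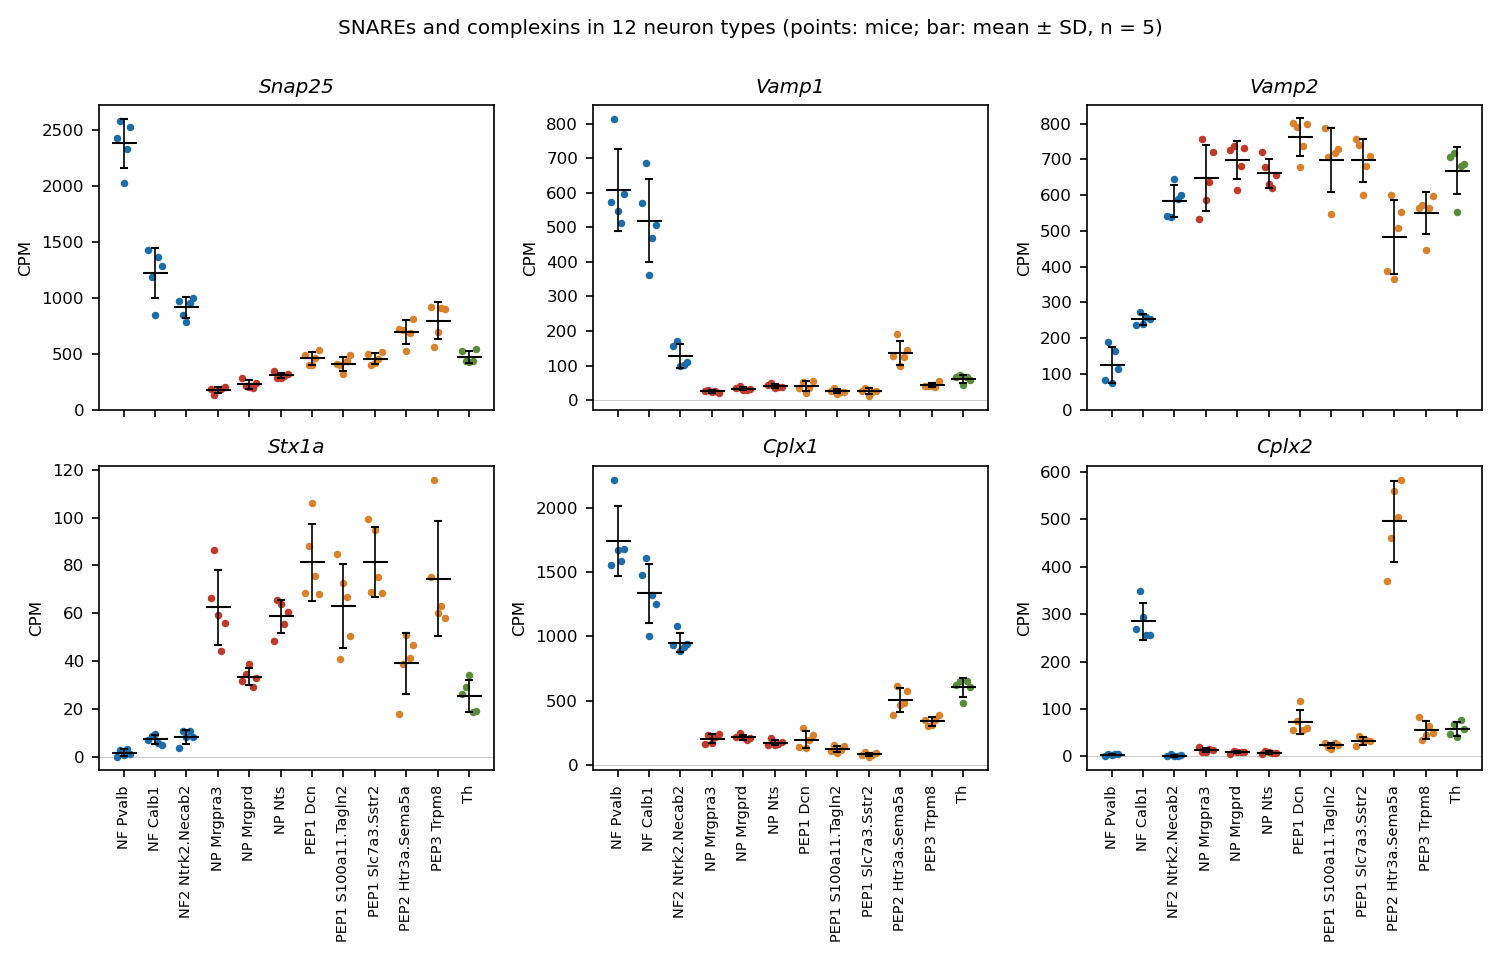
CPM (y axes, linear) of Snap25, Vamp1, Vamp2, Stx1a, Cplx1 and Cplx2 in the 12 neuron types (x axes), where points are the 5 mice, bars the mean ± SD, and colours the NF (blue), NP (red), PEP (orange) and Th (green) types. NF_Pvalb and NF_Calb1 are high in Snap25, Vamp1 and Cplx1 and low in Vamp2 and Stx1a, and Cplx2 is high in PEP2_Htr3a.Sema5a and NF_Calb1 alone.

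Over the 12 neuron types, the member most like Vamp1 in log2 level was Cplx1 (Pearson r = 0.92) and the least like was Syt5 (r = -0.98), over members of at least 10 CPM in the pooled neurons. Syt5 was most like Syt9 (r = 0.95). These are descriptions over 12 points that share libraries and depth. The proximal promoters of the pair that moved together, Vamp1 and Cplx1, and of Syt9, which moved the other way, are shown as the 250 bases before the RefSeq start in GRCm38.p6. They are written 5′ to 3′ on the strand of the gene, with the GC box (GGGCGG or its reverse complement CCGCCC, bound by Sp1 family factors) in capitals. Vamp1 lies at chr6:125215331-125215580 (plus strand), Cplx1 at chr5:108550028-108550277 (minus strand) and Syt9 at chr7:107370540-107370789 (plus strand).
Vamp1: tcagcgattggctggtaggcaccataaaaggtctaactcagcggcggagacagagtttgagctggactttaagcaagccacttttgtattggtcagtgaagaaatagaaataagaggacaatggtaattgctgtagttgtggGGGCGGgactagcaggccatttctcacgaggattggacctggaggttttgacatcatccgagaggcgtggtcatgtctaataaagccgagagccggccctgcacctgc
Cplx1: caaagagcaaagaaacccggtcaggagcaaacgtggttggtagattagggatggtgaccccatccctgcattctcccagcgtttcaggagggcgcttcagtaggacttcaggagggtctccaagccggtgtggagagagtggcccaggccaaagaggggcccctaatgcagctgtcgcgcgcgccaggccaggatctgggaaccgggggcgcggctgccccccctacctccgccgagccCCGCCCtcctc
Syt9: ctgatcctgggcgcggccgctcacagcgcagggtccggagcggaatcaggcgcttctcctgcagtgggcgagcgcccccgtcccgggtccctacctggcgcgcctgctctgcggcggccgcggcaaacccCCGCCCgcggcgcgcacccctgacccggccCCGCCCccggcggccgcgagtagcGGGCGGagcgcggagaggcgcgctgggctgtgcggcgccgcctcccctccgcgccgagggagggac
The GC box occurred in windows of both patterns. A window of 250 bases before and 50 bases after the start was found for 38 of the 49 members, 47 windows in all, and 34 of the 47 (72.3%) held the GC box on either strand, beside 35.7% of the 32851 promoter windows of the table. Median GC content was 64.3% in the member windows and 52.7% over all windows. The cAMP response element TGACGTCA was in 2.13% of member windows and 1.79% of all, AAGGTCA or its reverse complement, a site of estrogen-related receptors, in 6.38% and 4.72%, and TGTGGT or its reverse complement, the core of Runx sites, in 12.8% and 16.8%. The GENCODE starts of Vamp1 and Syt9 lie inside the stretches shown, upstream of the RefSeq starts. None of the 4 motifs contains another, and only the GC box is marked above. A match is only a description of these letters.

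The calcium sensors divided the classes further. Syt1 and Syt2 are the fast sensors of synaptic vesicles and stand in for each other in different neurons. Syt1 had 502, 541, 700.0, 701 and 631 CPM in NF2_Ntrk2.Necab2 and 542, 574, 569, 634 and 551 CPM in Th, with overlap, and 32.6, 66.2, 26.9, 74.1 and 49 CPM in NF_Pvalb, the lowest type. Syt2 had 51.8, 26.7, 47, 36.1 and 35.3 CPM in NF_Pvalb, 27.9, 27.3, 41.5, 29.3 and 26.4 CPM in NF_Calb1, 18.6, 16.5, 23.9, 18.7 and 16.1 CPM in PEP2_Htr3a.Sema5a and 12, 11.7, 21.4, 15.5 and 16.1 CPM in PEP3_Trpm8. The NF_Pvalb and NF_Calb1 values overlapped and were above those of PEP2_Htr3a.Sema5a, and the 3 NP types held 15 UMIs of Syt2 together. NF2_Ntrk2.Necab2 did not share the high level, with a log2 ratio of Syt2 over Syt1 (CPM + 1) of -7.14 ± 1.28 (SD). Syt2 had a log2 fold change of 7.03 ± 0.39 for NF against NP (adjusted p = 1.1e-23, and 7.81 without mouse 5) and -6.25 ± 0.31 for NP against PEP (adjusted p = 3.1e-25). NP_Mrgpra3 held none of these UMIs, so the size of both values depends on the prior count. Between NF and PEP the log2 fold change of Syt2 was 0.79 ± 0.17 (adjusted p = 6.4e-05), under 2-fold, and 1.05 without mouse 5.

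Syt3, a high-affinity sensor, had the largest fitted log2 fold change between NF and NP. It had 85.8, 82.3, 77.1, 81 and 70.4 CPM as the mean of the 3 NF types in the 5 mice and 0.556, 0.2, 0.0446, 0.125 and 0.112 CPM as the mean of the 3 NP types. Every NF value was above every NP value, and the value was 9.19 ± 0.21 against NP (17 UMIs in NP, adjusted p = 1.6e-42) and 4.17 ± 0.13 against PEP (adjusted p = 2.1e-35). NP_Mrgpra3 held no UMI of Syt3, so the size of fitted values that involve the NP types depends on the prior count. Outside the NF class it was found in Th, at 24 ± 3.12 CPM, PEP3_Trpm8, at 16.2 ± 6.51, and PEP2_Htr3a.Sema5a, at 13.5 ± 4.16 CPM, and NP against PEP stood at -5.02 ± 0.63 (adjusted p = 5.5e-10). Syt12, a synaptotagmin without calcium binding, was also higher in NF, at 14.3 ± 2.31 CPM against 0.189 ± 0.341 in NP and 2.76 ± 0.687 in PEP types, with log2 fold changes of 6.58 ± 0.35 and 3.21 ± 0.25 (adjusted p = 1.1e-24 and 1.5e-17). Its level in NP_Mrgpra3 was also zero, so the size of the value against NP depends on the prior count.

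Syt5 and Syt9 were the mirror image. Syt5 had 223, 341, 362, 350.2 and 301 CPM in NP_Mrgpra3 and 309, 264, 326, 295 and 270.4 CPM in NP_Mrgprd, which overlapped, and 0, 0, 0.84, 1.87 and 0 CPM in NF_Pvalb, where 3 of 5 mice had no UMI. The log2 fold change of NF was -6.11 ± 0.15 against NP and -5.10 ± 0.15 against PEP (adjusted p = 1.2e-42 and 1.8e-37), and the former was -6.72 without mouse 4. NP exceeded PEP by 1.01 ± 0.08 (adjusted p = 2e-18), a call at the 2-fold limit that was lost without TMM scaling, at 0.93, and without mouse 3, at 0.99. Syt9 was highest in NP_Nts, at 137, 179, 119.6, 116 and 113 CPM, above the mice of all other types, and lowest in NF_Pvalb, at 0, 2.96, 2.52, 6.85 and 1.52 CPM. Its log2 fold change was -3.60 ± 0.11 for NF against NP and -2.84 ± 0.12 against PEP (adjusted p = 6e-37 and 1.5e-30).

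**Figure D4:**
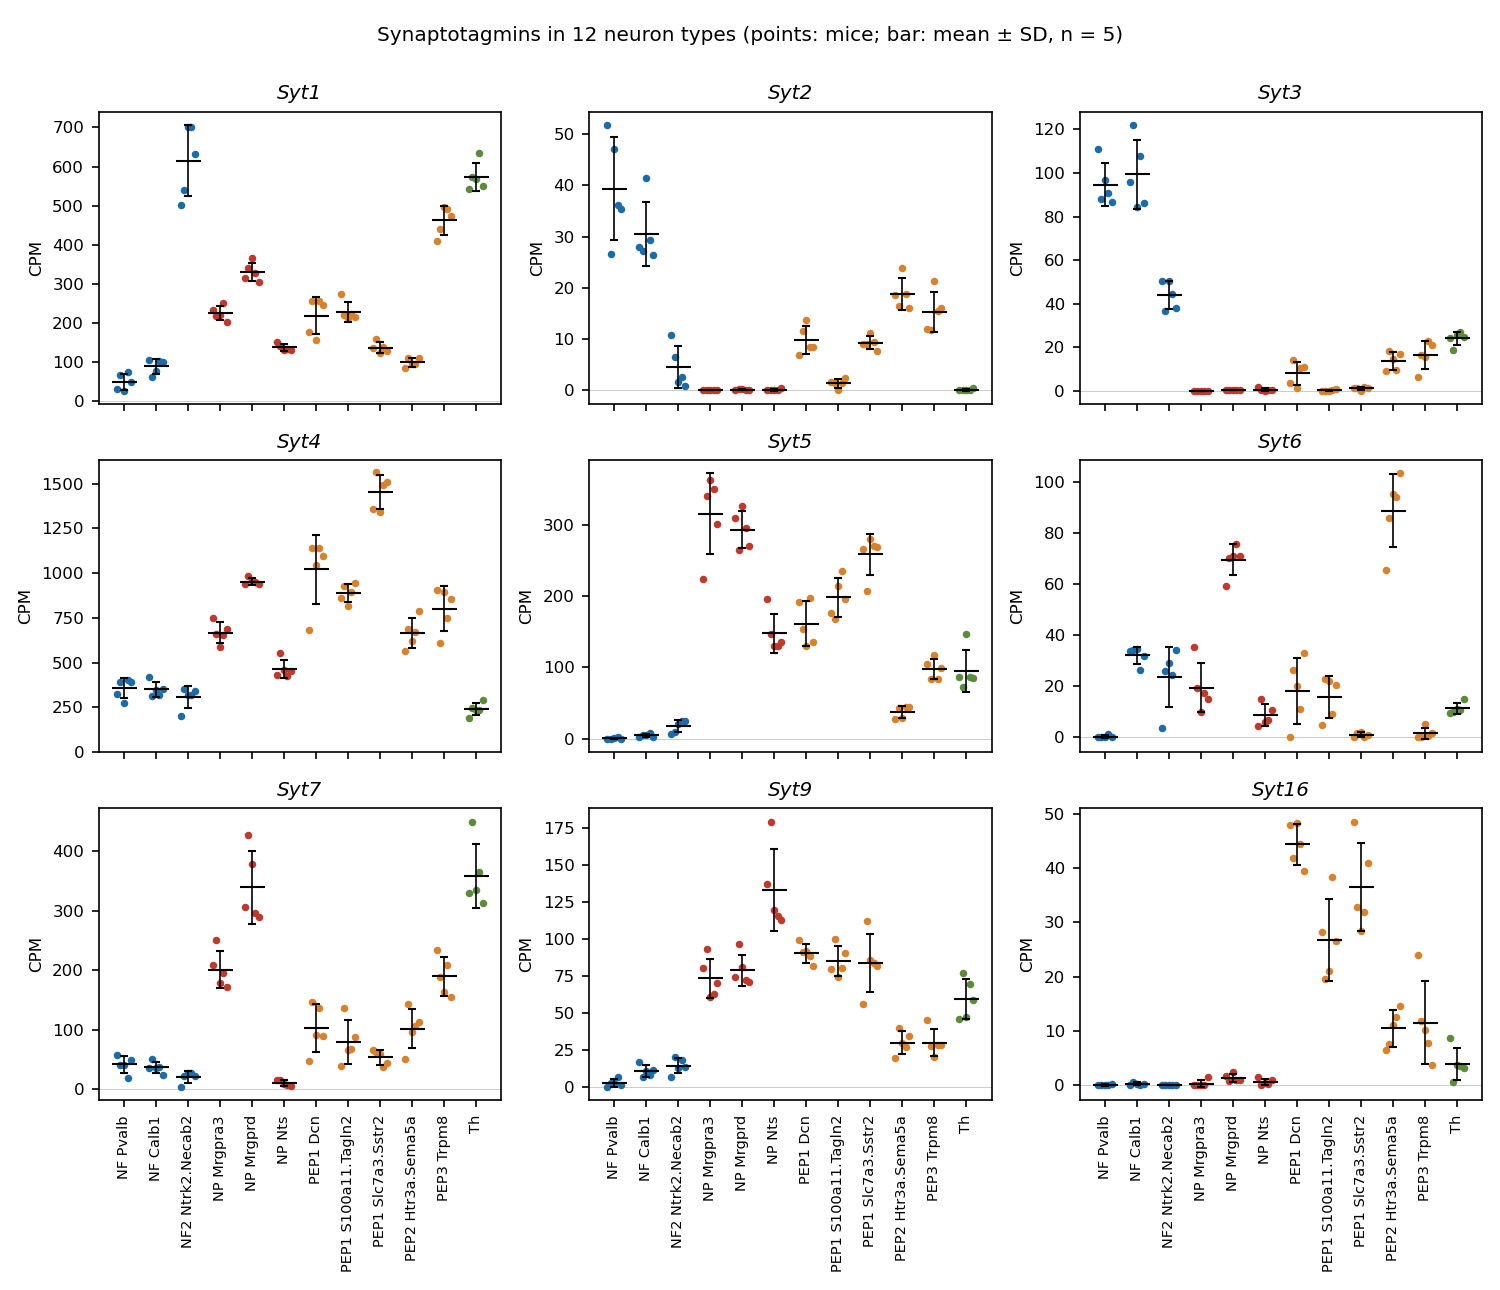
CPM (y axes, linear) of 9 synaptotagmins in the 12 neuron types (x axes), with points for the 5 mice, bars for the mean ± SD and the same colours for the classes. Syt2 is highest in NF_Pvalb and NF_Calb1 but not in NF2_Ntrk2.Necab2. Syt3 is highest in NF types and Syt5 and Syt9 are lowest there. Syt7 is high in Th and NP_Mrgprd, Syt4 in PEP1_Slc7a3.Sstr2, and Syt16 in the 3 PEP1 types.

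Syt7, a slow, high-affinity sensor of asynchronous release and of dense-core and lysosomal exocytosis, varied within the NP class rather than between NP and PEP. It had 330.5, 450.1, 335, 365 and 313 CPM in Th, 306, 428, 379, 296 and 289 CPM in NP_Mrgprd and 16.1, 16.1, 9.27, 7.6 and 5.44 CPM in NP_Nts, the lowest type by mean. Th and NP_Mrgprd overlapped, and NP_Nts overlapped NF2_Ntrk2.Necab2 alone. Against the mean of the other neuron types, the log2 fold change was -3.47 ± 0.20 in NP_Nts (adjusted p = 2.9e-23), 2.40 ± 0.10 in NP_Mrgprd (adjusted p = 1.2e-30) and 2.32 ± 0.10 in Th (adjusted p = 1.7e-28). Between NP and PEP the contrast was -0.13 ± 0.10 (adjusted p = 0.26).

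Syt4 and Syt16 had their highest mean levels in PEP1 types. Syt4, which sits on dense-core vesicles, had 1361, 1563, 1343, 1492 and 1509 CPM in PEP1_Slc7a3.Sstr2, above all other types, and 193, 245, 236, 239 and 289 CPM in Th, the lowest by mean, which overlapped NF_Pvalb and NF2_Ntrk2.Necab2. Against the other types the log2 fold change was 1.40 ± 0.07 in the first (adjusted p = 2.2e-26) and -1.47 ± 0.09 in the second (adjusted p = 7.7e-22). Syt16, an atypical synaptotagmin without calcium binding, had 47.9, 41.9, 48.2, 44.5 and 39.5 CPM in PEP1_Dcn, 28.2, 19.5, 21, 38.4 and 26.6 CPM in PEP1_S100a11.Tagln2 and 48.6, 32.8, 28.3, 31.8 and 40.9 CPM in PEP1_Slc7a3.Sstr2. The levels of PEP1_Dcn and PEP1_Slc7a3.Sstr2 overlapped, and the NF types held 5 UMIs together. The log2 fold change was -7.46 ± 0.38 for NF against PEP (adjusted p = 7.2e-25) and -4.75 ± 0.22 for NP against PEP (adjusted p = 6.1e-27), the latter -6.28 without mouse 5, which held the 6 UMIs of NP_Mrgpra3. NF2_Ntrk2.Necab2 held no UMI of Syt16, so the size of the NF value depends on the prior count. Syt6 had 65.6, 85.7, 95.1, 93.9 and 103 CPM in PEP2_Htr3a.Sema5a and 59.4, 70.3, 71, 75.6 and 71.1 CPM in NP_Mrgprd, which overlapped, and 3 UMIs in NF_Pvalb. It was the member with the largest rise in NP_Mrgprd, by 3.09 ± 0.12 (adjusted p = 3.2e-31), and was higher in NP than in PEP by 1.40 ± 0.17 (adjusted p = 2e-10).

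The balance between paralogs was compared within each mouse as the difference of the mean log2 ratio (CPM + 1) between the 3 NF types and the 8 NP and PEP types, for 3 pairs described here. Vamp1 over Vamp2 was higher in NF by 4.41 ± 0.23 (SD, n = 5 mice), Cplx1 over Cplx2 by 3.95 ± 0.61 and Syt2 over Syt1 by 2.67 ± 0.59. Each difference had the same direction in 5 of 5 mice, and the exact two-sided sign-flip test over mice gave p = 0.0625 for each pair (0.0625 after Benjamini-Hochberg adjustment over the 4 pairs tested), the smallest p that 5 mice allow, so no pair could pass 0.05. By type, Vamp1 exceeded Vamp2 only in NF_Pvalb (2.34 ± 0.50) and NF_Calb1 (1.00 ± 0.30), and NF2_Ntrk2.Necab2 (-2.22 ± 0.48) lay near PEP2_Htr3a.Sema5a (-1.82 ± 0.18). Syt2 came close to Syt1 only in NF_Pvalb (-0.26 ± 0.95) and was far below it in NF2_Ntrk2.Necab2 (-7.14 ± 1.28). Cplx1 and Cplx2 were near parity in PEP2_Htr3a.Sema5a (0.02 ± 0.26). Cplx2 had only 1.76 ± 2.23 CPM in NF2_Ntrk2.Necab2, and Syt2 had 0 CPM in NP_Mrgpra3. The sizes of the differences for Cplx1 over Cplx2 and Syt2 over Syt1 therefore depend on the 1 CPM added to each level.

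**Figure D5:**
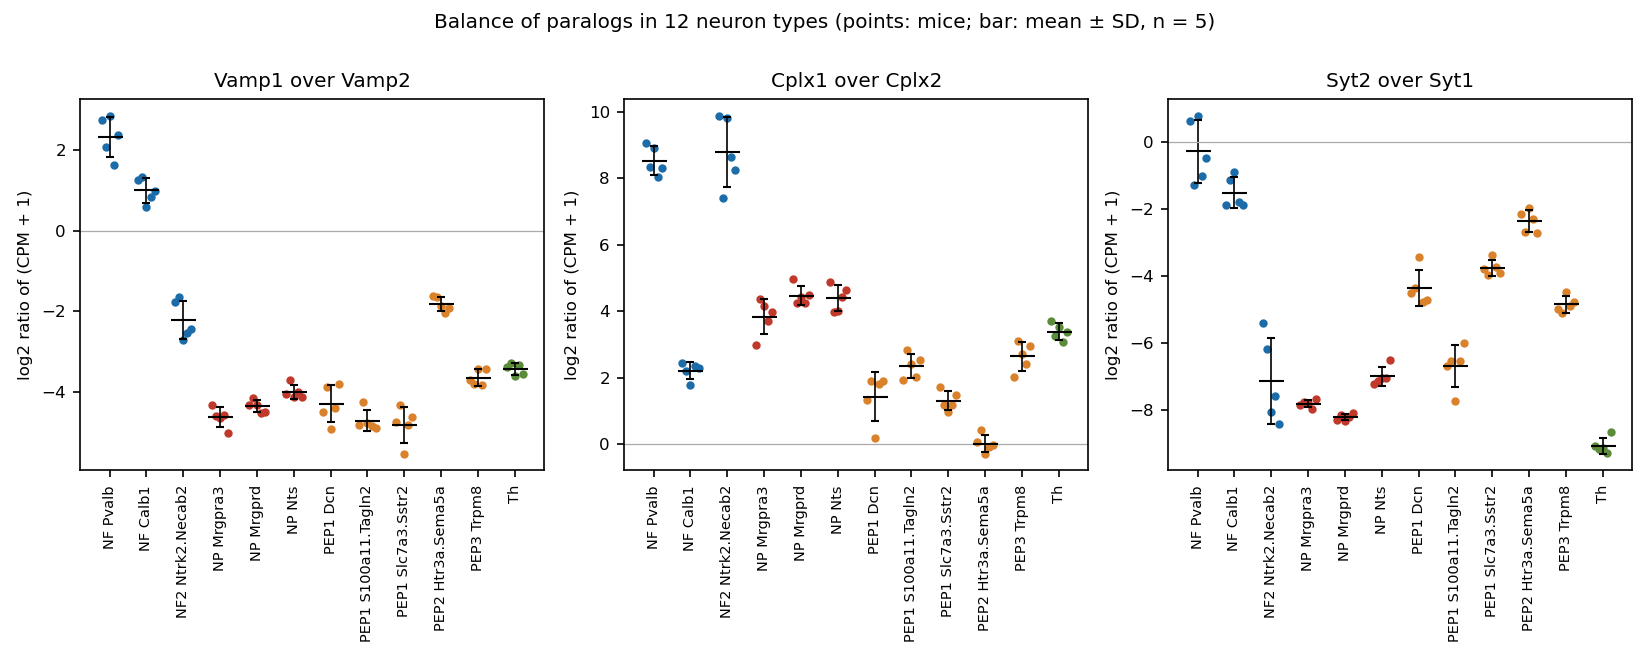
Log2 ratio of (CPM + 1) between 3 pairs of paralogs (y axes) in the 12 neuron types (x axes), with points for the 5 mice and bars for the mean ± SD. The NF types do not behave as 1 group: NF2_Ntrk2.Necab2 sits with the other neurons in the Vamp1 over Vamp2 and Syt2 over Syt1 panels, and NF_Calb1 does so in the Cplx1 over Cplx2 panel.

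A few members stood far higher in 1 or 2 neuron types than in the rest. Vamp8 had 194, 125, 174, 177 and 202 CPM in NP_Nts, above all other neuron types and overlapping satellite glia, where it had 95.8, 97.9, 116, 144 and 113 CPM. The next neuron types were PEP2_Htr3a.Sema5a at 30.6 ± 6.51 and NP_Mrgprd at 29.6 ± 5.29 CPM. It was the largest rise in NP_Nts (4.79 ± 0.14, adjusted p = 1.4e-37). The satellite glia markers summed to 169.5 to 526 CPM in NP_Nts and to 298 to 749 CPM in NP_Mrgpra3, where Vamp8 had 2.21 ± 3.39 CPM. The part of RNA from glia in these values was not tested. NF against NP stood at -3.53 ± 0.44 (adjusted p = 1.8e-10). Stxbp6 (amisyn), which binds syntaxins in place of a Vamp, had 65.2, 123, 79.8, 94 and 109 CPM in NF_Pvalb and 58, 49.2, 23.4, 41.1 and 51.7 CPM in NF_Calb1, and 6 UMIs in the NP and 21 in the PEP types. NF_Pvalb lay above NF_Calb1 without overlap, and each was higher than the other types, by a log2 fold change of 8.45 ± 0.19 and 7.17 ± 0.20 (adjusted p = 9.9e-38 and 2.9e-33, the second 7.81 without mouse 3). The third NF type, NF2_Ntrk2.Necab2, held 1 UMI, from mouse 3. The class contrasts of NF with NP (7.60 ± 1.57, adjusted p = 2.6e-05) and with PEP (4.95 ± 1.29, adjusted p = 0.00067) were both lost without that mouse (adjusted p = 1), and the fitted value of a type at 0 depends on the prior count.

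Stxbp2 (Munc18-2), the Munc18 of granule secretion in blood and epithelial cells, had 75.3, 10.3, 4.56, 7.65 and 5.18 CPM in PEP1_Dcn. The value of mouse 1, from 4 cells, stood apart, and the call (1.36 ± 0.39, adjusted p = 0.0029) was lost without it (0.86 ± 0.33, adjusted p = 0.03). In Th, Stxbp2 was the largest fall (-3.11 ± 0.65, adjusted p = 4.2e-05), on 8 UMIs. Syt13, which lacks calcium binding, was the largest rise in PEP3_Trpm8 (4.46 ± 0.57, adjusted p = 8.1e-09) at 3.83 ± 2.69 CPM, although its mean was higher in NF_Calb1, at 6.29 ± 2.27 CPM. PEP1_Slc7a3.Sstr2 held no UMI of Syt13, so the fitted size depends on the prior count. Stx17, the syntaxin of autophagosomes, was the largest fall in NP_Mrgprd (-2.67 ± 0.21, adjusted p = 1.1e-17), at 1.61 ± 1.15 CPM.

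Each neuron type was finally set against the mean of the other 11. The background is the share of all genes called, in all, higher and lower. Of the 43 members, those called numbered 21 in NF_Calb1 (12 higher and 9 lower, background 23.9%, 16.5% and 7.43%), 18 in NF_Pvalb (8 higher and 10 lower, background 26.3%, 14.8% and 11.5%) and 14 in NF2_Ntrk2.Necab2 (5 higher and 9 lower, background 18.7%, 10.7% and 7.99%). Among the NP types they numbered 12 in NP_Mrgpra3 (5 higher and 7 lower, background 16%, 7.71% and 8.32%), 11 in NP_Mrgprd (6 higher and 5 lower, background 20.2%, 8.17% and 12%) and 11 in NP_Nts (7 higher and 4 lower, background 21.3%, 9.18% and 12.1%). Among the PEP1 types they numbered 11 in PEP1_Dcn (11 higher and 0 lower, background 13.9%, 11.2% and 2.7%), 11 in PEP1_Slc7a3.Sstr2 (8 higher and 3 lower, background 16.3%, 10.6% and 5.74%) and 8 in PEP1_S100a11.Tagln2 (6 higher and 2 lower, background 12.1%, 8.68% and 3.4%). In the remaining types they numbered 13 in PEP3_Trpm8 (11 higher and 2 lower, background 18.1%, 11.3% and 6.89%), 9 in PEP2_Htr3a.Sema5a (8 higher and 1 lower, background 15.8%, 12.8% and 2.99%) and 8 in Th (5 higher and 3 lower, background 18.2%, 9.32% and 8.87%). The share of the 43 members was closest to the background in Th, at 18.6%. Over the 12 comparisons 27 of the 43 members (62.8%) were called at least 1 time, where 55.2% of all genes were, with 92 calls higher and 55 lower.

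The largest rise and fall differed by type. The largest rises were Stxbp6 in NF_Pvalb and NF_Calb1, Syt3 in NF2_Ntrk2.Necab2 (3.73 ± 0.20) and Th (2.77 ± 0.18), Syt5 in NP_Mrgpra3 (2.75 ± 0.10), Syt16 in PEP1_Dcn (4.76 ± 0.21), PEP1_S100a11.Tagln2 (4.02 ± 0.24) and PEP1_Slc7a3.Sstr2 (4.43 ± 0.20), and Cplx2 in PEP2_Htr3a.Sema5a (4.51 ± 0.09). The largest falls were Syt5 in NF_Pvalb (-7.36 ± 0.36) and NF_Calb1 (-4.19 ± 0.41), Syt6 in PEP1_Slc7a3.Sstr2 (-3.79 ± 0.48) and PEP3_Trpm8 (-2.96 ± 0.51), Cplx1 in PEP1_S100a11.Tagln2 (-1.63 ± 0.09) and Syt1 in PEP2_Htr3a.Sema5a (-1.15 ± 0.10). Syt3 in NP_Mrgpra3 and Syt16 in NF2_Ntrk2.Necab2 were at 0 UMIs in the type named, so their fitted falls are no estimate of size. The rises of Syt3 and Syt16 were set against means that include these types, so their size depends on the prior count as well. Syt5 in NF_Pvalb rested on 4 UMIs, and its value was -8.79 without mouse 4 and -6.61 without mouse 5. Syt6 in PEP3_Trpm8 was -3.84 without mouse 3. The call of Syt16 in NF2_Ntrk2.Necab2 was lost without mouse 5, at adjusted p = 1.

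The same contrasts appeared cell by cell. With each cell thinned to 10000 UMIs, which no cell fell below, Vamp1 was found in every NF_Pvalb cell, 94.4% of NF_Calb1 cells, 69% of NF2_Ntrk2.Necab2 cells and 23.1% of NP_Mrgpra3 cells (unthinned, in every cell of the NF types and 81.7% of NP_Mrgpra3 cells). Satellite glia gave 7.23% thinned and 9.24% unthinned, at a median of 17729 UMIs per cell beside 66720.0 in NF_Pvalb. Syt7 was found in 93.6% of thinned NP_Mrgprd cells and 6% of NP_Nts cells (glia 2.81%, unthinned 99.7%, 28.8% and 4.42%). Vamp8 was found in 79.2% of thinned NP_Nts cells and 1.92% of NP_Mrgpra3 cells (unthinned 98% and 5.77%). Cplx2 was found in 89.8% of PEP2_Htr3a.Sema5a cells and in 56.7% of NF_Calb1 cells (glia 13.3%, unthinned 99%, 80.0% and 22.9%), so part of the NF_Calb1 cells had none at this depth.

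The release machinery outside the chosen families was followed with a list of 52 genes, of which 51 were in the table. Against satellite glia 30 of the 42 tested were called higher and 3 lower in neurons, and against endothelial cells 32 and 2. Over all genes tested these shares were 30.5% and 25.3% against glia and 34.2% and 24.4% against endothelial cells. The 3 genes lower in neurons than in glia were Sypl, a widely expressed relative of synaptophysin, Sec22b, a SNARE between the endoplasmic reticulum and the Golgi, and Bet1, another SNARE of that route (-1.40 ± 0.17, -2.60 ± 0.15 and -1.04 ± 0.17, adjusted p = 2e-09, 3.1e-17 and 1.6e-06). Against endothelial cells Sypl and Sec22b were lower as well (-1.95 ± 0.23 and -1.82 ± 0.29), and Bet1 was higher (1.54 ± 0.47, adjusted p = 0.0043). Between NF and NP, 14 of 48 were higher and 9 lower in NF, and between NF and PEP 7 and 11, where 19.2% of all genes tested were higher and 14.7% lower against NP and 11.5% and 13.3% against PEP. Syp (synaptophysin) had 316 ± 24 CPM in the NF types, 30.6 ± 5.71 in NP and 78.6 ± 11 in PEP types, and the vesicle protein Sv2b had 255 ± 20.7, 4.29 ± 0.859 and 57.4 ± 12.3 CPM. NF exceeded NP by 3.57 ± 0.11 and 6.91 ± 0.14 (adjusted p = 2e-38 and 3.3e-46). Nsf, the ATPase that takes spent SNARE complexes apart, was higher in NF by 1.39 ± 0.06 against NP and 1.15 ± 0.05 against PEP. The priming factor Unc13c (-4.35 ± 0.17) and the dense-core vesicle GTPase Rab27b (-3.02 ± 0.15) were lower in NF than in NP, at 8.19 ± 1.87 against 73.4 ± 6.38 CPM and 11.4 ± 3.06 against 165 ± 15.6 CPM.

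Low members limit what can be said of them. Of the 49, 13 did not pass the filter in the comparison of neurons with the other cells (among them Stx17, Stxbp2, Stxbp4, Stxbp6, Syt2, Syt10 and Syt12 to Syt17) and 6 did not among the neuron types (among them Snap23, Syt10, Syt15, Syt17 and Vamp5). Syt10 reached 3.84 CPM in PEP1_S100a11.Tagln2, Syt15 5.31 CPM in endothelial cells and Syt17 1.11 CPM in PEP1_Dcn at most. Among the members tested between neuron types, 16 were called in no type, while 62.8% were called in at least 1, beside 55.2% of all genes tested.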

How the data were processed

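Cells were aligned to mm10 and counted with Cell Ranger and filtered and clustered with Seurat, per the labels. The deposited values are raw UMI counts per gene and cell, with no normalisation, and the authors kept cells with 500 to 15000 genes and at most 10% mitochondrial UMIs and named their types. They limited doublets by loading few cells, and no doublet caller was run here. The deposited annotation gave the type of each cell, and its name gave the library.

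UMIs were summed per type and mouse. Rows naming no mouse gene (4 rows, 143 UMIs, 6.37e-05% of the total) were left out. In R 4.3.3, edgeR 4.0.16 (filterByExpr, TMM, quasi-likelihood test, mouse as block) gave 2 fits, one of 15 sums (neurons, satellite glia, endothelial cells) and one of 60 sums (12 neuron types). Same-numbered sums come from 1 animal, and their deviations correlated at a median of 0.20 over 263 pairs, against -0.05 over 1020 pairs of different mice. SE is the absolute log2 fold change over the square root of F. The fits were also run on simulated data with a fixed spread, no mouse effect and changes only in genes of higher counts. That run does not cover low members or the correlation within a mouse. Alternatives were DESeq2 1.42.0, no TMM, no block, no filter, sums of at least 10 cells, each mouse left out, another threshold, a pseudocount of 10 CPM and means over cells.

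Results of some members are not reported here, though counts include them. Members, lists and tests were chosen with earlier results of these data known. Members named were a fixed set of core genes, the 5 called members with the largest fold change in each direction against the other cells that moved alike in every mouse, the 3 largest in each class comparison and the largest rise and fall in each neuron type. Stx5a, Stx6, Stx7, Stx8, Stx12, Stx16, Stx18, Syt10, Syt15, Syt17, Stxbp2 in PEP1_Dcn and the pathway genes were named after their values were seen, as were single values given for another type. The edgeR p-values measure the spread left between the sums of a fit after the type and mouse terms, with information shared between genes. Those of the sign-flip test rest on the 5 mice alone. In the smallest sums 1 UMI is a large share of a level, which limits low members.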

Additional observations from a re-analysis of the deposited data

Results flagged for a closer look

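For 102 groups of 5 mice, the highest or lowest mouse was compared with the others by Dixon's ratio, with a critical value of 0.71. A group was a named member in a cell type, the summed level of all members in a type, or a paralog balance. The groups share mice and members and are not independent. In 7 groups 1 mouse stood apart, where chance alone gives about 1 in 20. In mouse 2, Vamp1 had 813 CPM in NF_Pvalb (other mice 513 to 597), Cplx1 had 2220.0 CPM in NF_Pvalb (1553 to 1679) and 1080.2 CPM in NF2_Ntrk2.Necab2 (887 to 939), and Vamp8 had 8.13 CPM in NP_Mrgpra3 (0 to 1.67). In mouse 3, Syt2 had 41.5 CPM in NF_Calb1 (26.4 to 29.3). In mouse 4, Syt6 had 1.25 CPM in NF_Pvalb (0 to 0.305). In mouse 1, Stxbp2 had 75.3 CPM in PEP1_Dcn (4.56 to 10.3), on 4 cells. Of these, only the value of Stxbp2 decided a call described in the report, as given there. Whether sex or library quality goes with these mice was not tested.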

How the results depend on the processing

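Of 118 results for named members, 106 kept their direction and their side of the threshold under every alternative fit. The other threshold, the pseudocount of 10 CPM and the means over cells were not applied to these 118. Leaving out the mouse as a block changed no call of a named member and no count of members called but that of PEP3_Trpm8, 12 in place of 13. At an adjusted p under 0.05 with no fold minimum, 39 of the 43 members tested were called in NF against NP, 37 in NF against PEP and 31 in NP against PEP, where 78.7%, 73.3% and 68.5% of all genes tested were called. By type the counts were then 34 for NF_Calb1, 32 for NP_Mrgprd, 30 each for NF_Pvalb, NF2_Ntrk2.Necab2, NP_Nts, PEP1_Slc7a3.Sstr2 and PEP1_Dcn, 28 each for PEP3_Trpm8 and PEP2_Htr3a.Sema5a, 27 for NP_Mrgpra3, 24 each for Th and PEP1_S100a11.Tagln2, and 43 in at least 1 type, where 41.3% to 71.6% of all genes were called by type and 99.1% in at least 1. DESeq2 called 17 members in NP_Mrgprd in place of 11 (24.2% of all genes in place of 20.2%), and a mean over cells gave a summed level of 6330.5 CPM in NF2_Ntrk2.Necab2. The cause of these differences other than the lower threshold was not tested. Without TMM the median of all genes moved by 0.26 on the log2 scale against glia and by 0.28 against endothelial cells, and every called member named there kept its call.

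With 1 mouse left out, the members called ranged from 26 to 28 against glia, 26 to 29 against endothelial cells, 20 to 25 in NF against NP, 16 to 19 in NF against PEP, 9 to 11 in NP against PEP, and 8 to 22 in the single types. Only uncalled values changed sign, all in NP against PEP. Syt7 ranged from -0.1750 to 0.0043 (without mouse 5), Syt11 was -0.0477 without TMM, and Cplx1 was -0.0404 without TMM and ranged from -0.0021 (without mouse 3) to 0.1139. Named calls were lost for Syt9 with DESeq2 (8.27 against glia and 6.09 against endothelial cells), Stx8 against endothelial cells with sums of at least 10 cells (0.96) and without mouse 3 (1.05), Stxbp6 with sums of at least 10 cells (6.75 against NP and 4.04 against PEP) and without mouse 3 (6.89 and 4.44), Syt5 in NP against PEP (1.00 with DESeq2, 0.93 without TMM, 0.99 without mouse 3), Syt16 in NF2_Ntrk2.Necab2 without mouse 5 (-5.47) and Syt4 in NF against NP without TMM (-0.97). Syt2 in NF against PEP passed 2-fold without mouse 5 (1.05). Outside the results counted above, the call of Stxbp3 against endothelial cells was lost without mouse 2, 3 or 5. That of Stxbp2 in PEP1_Dcn was lost without mouse 1. Endothelial sums held 941065 UMIs, so members under a few CPM could not be measured there.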

Other observations

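Some members outside the core fusion complex also differed between neuron classes. They were chosen after their values were seen. Stx2, a syntaxin of the plasma membrane known from secretion outside the synapse, was called in 9 of 12 neuron types, as often as Stx1a. It had 5.65, 16.7, 22.8, 15.5 and 11.5 CPM in the 3 NF types and 109.7, 110.5, 110.2, 105 and 102 CPM in the 3 NP types in the 5 mice, without overlap, and the log2 fold change by edgeR was -3.51 ± 0.10 against NP and -2.76 ± 0.11 against PEP (adjusted p = 2.1e-38 and 3.2e-31). Snap47, a Snap25 relative without a membrane anchor, was highest in PEP3_Trpm8 at 305 ± 32.7 CPM (SD, n = 5) and lowest in NF2_Ntrk2.Necab2 at 75.1 ± 7.72 CPM. In NP_Mrgpra3, where Snap25 was lowest, Snap47 made up 34.9% of the UMIs of the 5 Snap genes (SD 6.08, n = 5) and Snap25 made up 41.5% (SD 5.49). In NF_Pvalb the shares were 5.54% and 84.0%. The 5 genes include Snap91, which is not a SNARE, so these are not shares among the Snap25 relatives alone.

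Of the 43 members tested, 16 were called in no neuron type against the others. The share called in at least 1 type was 62.8% of members and 55.2% of all genes tested. The 16 include Stx4a, Stx5a, Stx6, Stx7, Stx8, Stx12, Stx16 and Stx18, which serve the Golgi, the endosomes or the general plasma membrane. They also include Snap29, Stx3, Stxbp3, Stxbp4, Syt11, Syt14 and Vamp4. Syt11, the most abundant member in the pooled neurons, ran from 625 ± 52.5 CPM in PEP3_Trpm8 to 1774 ± 173 CPM in NF_Calb1.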
